A study of Homo sapiens with 10 samples.

Results

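The genes described here are 45 human genes of DNA replication and of the G1/S step of the cell cycle, most of them well-known targets of the E2F transcription factors. They were chosen by gene symbol, and all 45 were found among the 13029 genes of the ZMAT3 table and the 17642 genes of the siRNA table. All were also among the 14274 siRNA-table genes that reached a mean of 0.5 FPKM (fragments counted per length of transcript and per size of library) and were tested. Poly(A) RNA of HCT116 cells, a human colorectal cancer line, was sequenced in 10 libraries from drug-free cultures. In the ZMAT3 experiment, 3 cultures of a ZMAT3-WT clone were compared with 3 cultures of a ZMAT3-KO clone. ZMAT3 encodes an RNA-binding zinc-finger protein induced by p53. The ZMAT3-KO clone was made by CRISPR/Cas9 with guides on both sides of the p53 response element in the second intron of ZMAT3. The paper states that the region between the guides was not fully removed, and ZMAT3 RNA was reduced, not absent. In the siRNA experiment, 2 cultures transfected for 72 hr with a control siRNA (siCTRL) were compared with 2 cultures transfected with a pool of siRNAs against p53 (sip53), all in HCT116 cells with no clone selected. Each genotype of the ZMAT3 experiment was 1 clone grown from a single cell, so clone and genotype cannot be told apart, and p-values measured only the spread between cultures.

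Before S phase, the origin recognition complex, CDC6 and CDT1 load the MCM2-7 helicase onto replication origins, and CDC45 and the GINS complex then join it to form the moving helicase. Primase and polymerase alpha start each strand, the RFC clamp loader places the PCNA ring, polymerases delta and epsilon copy the DNA, and FEN1 and LIG1 join the lagging-strand fragments. Many of the genes for these proteins are switched on together in late G1 by E2F factors, once cyclin-dependent kinases have phosphorylated the RB family, and p53 is known to act on this step through the kinase inhibitor p21, the product of CDKN1A.

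The letters that E2F factors are known to bind were looked for in the promoters of the set, because E2F targets are commonly known by them. The genes were chosen by symbol and not by these letters, but as a set that holds many known E2F targets. A high share with the letters could therefore come from the choice itself, and it is given as a description. The search took 4 words of 8 letters, TTTCCCGC, TTTCGCGC, TTTGCCGC and TTTGGCGC, on both strands, with overlapping matches counted separately, in RefSeq promoter windows of build GRCh38.p14 that run from 250 bases before to 50 bases after a transcription start. Windows were given for 41 of the 45 genes (53 windows), and MCM4, MCM5, GINS4 and CCNE2 had no entry. At least 1 word stood in a window of 24 of these 41 genes (58.5%), against 3.99% of all 27305 genes with a window, 3.31% of all 35116 windows and 6.81% of the 9730 genes that also had a row in the ZMAT3 table. 8 of the 24 genes held 2 or more words, and MCM6 held the most, 4. Stretches with 25 bases on either side of the match follow for some of the genes with a word. CLSPN, POLE, CDC6, RBL1 and ZNF367 had some of the larger changes reported below. MCM6, MCM2 and E2F1 hardly moved in the ZMAT3 clone comparison. Capitals mark the words, on the strand of the gene, where GCGGGAAA is TTTCCCGC read on the other strand and TTTCGCGCGAAA is 2 overlapping words.
CLSPN, chr1:35769951-35770008, minus strand: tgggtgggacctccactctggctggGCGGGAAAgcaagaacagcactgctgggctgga
POLE, chr12:132687328-132687385, minus strand: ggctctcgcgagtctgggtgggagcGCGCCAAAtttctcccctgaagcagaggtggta
CDC6, chr17:40287861-40287918, plus strand: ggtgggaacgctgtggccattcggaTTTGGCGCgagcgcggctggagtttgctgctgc
RBL1, chr20:37095981-37096048, minus strand: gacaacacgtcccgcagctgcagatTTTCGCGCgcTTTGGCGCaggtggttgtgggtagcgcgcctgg
ZNF367, chr9:96418359-96418430, minus strand: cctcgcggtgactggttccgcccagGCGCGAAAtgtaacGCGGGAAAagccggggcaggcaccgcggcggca
MCM6, chr2:135876497-135876620, minus strand: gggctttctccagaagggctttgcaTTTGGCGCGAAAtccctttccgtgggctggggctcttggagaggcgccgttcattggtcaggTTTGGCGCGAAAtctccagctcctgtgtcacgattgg
MCM2, chr3:127598388-127598449, plus strand: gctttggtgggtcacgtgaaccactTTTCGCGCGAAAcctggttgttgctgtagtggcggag
E2F1, chr20:33686373-33686443, minus strand: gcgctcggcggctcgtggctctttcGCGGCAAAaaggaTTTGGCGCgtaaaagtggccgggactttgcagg

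Genes with and without a word were set side by side as a description, with no test. In the ZMAT3 experiment the 24 genes with a word had a median log2 fold change of -0.04 and a range from -1.36 to 0.65, and the 17 without one had a median of -0.06 and a range from -0.43 to 0.38. In the siRNA experiment the median was 0.05 with a word, with a range from -0.73 to 1.85, and 0.07 without one, with a range from -0.76 to 0.62. CLSPN and POLE, which moved furthest and in opposite directions in the ZMAT3 clones, each held 1 word, and ZNF367, which moved furthest with sip53, held 2. PRIM1, RFC4 and RRM2, which changed in at least 1 of the experiments, held none in these windows. The same was true of RFC5, FEN1, MCM10, RFC2, CDC45, TK1, SLBP and CHAF1B, which passed in ZMAT3-KO.

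The labels of the ZMAT3 experiment were checked on the targeted gene first. In ZMAT3-WT, ZMAT3 itself measured 5.00, 5.20 and 5.26 log2 CPM (counts scaled to library size, on a log2 scale), and in ZMAT3-KO it measured 2.25, 2.34 and 2.20, a log2 fold change of -2.89 ± 0.07 (SE; limma adjusted p = 3.76e-12). Of 6 colorectal epithelial markers, EPCAM, CDH1, KRT8, KRT18 and KRT19 were abundant, while VIL1 reached only 0.13 to 0.22 FPKM in the siRNA libraries. In the ZMAT3-KO clone the keratin genes KRT8, KRT18 and KRT19 were 48.0%, 43.3% and 70.3% lower, more than any of the 45 genes but CLSPN for KRT8 and KRT18 and more than all for KRT19, and EPCAM and CDH1 did not pass (log2 fold change 0.01 and 0.05). Of 6 markers listed for other cell types, only COL1A1 had a row in either experiment, at 4.08 to 7.06 FPKM in the siRNA libraries. The others had no row and could not be looked up. The part of these markers in the results was not tested. Sequencing depth is unknown for all 10 libraries, because the tables hold no counts.

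Most of the replication genes moved little in the ZMAT3-KO clone, and those that changed were more often lower than higher. By limma's test with Benjamini-Hochberg adjustment over all genes, 21 of the 45 genes were lower and 5 were higher at an adjusted p under 0.05, and 19 did not pass. Over all 13029 genes, 30.1% were lower and 28.7% were higher by the same rule. Only CLSPN fell and only POLE rose by 1.5-fold or more as well as passing the test, where 4.37% of all genes were lower and 4.6% higher by that stricter rule. The other 20 genes that were lower had decreases between 6.42% and 26.0%, and the 4 other genes that were higher had increases between 8.74% and 30.6%. The 95% intervals of 43 of the 45 genes left out a 1.5-fold change in either direction, and those of the 19 genes that did not pass all lay between -9.45% and 13.2%. In bulk RNA, fewer cells in S phase and less of these RNAs per cell cannot be told apart.

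The median log2 fold change of the 45 genes was -0.05, against -0.01 over all genes, and 34 genes had a value below 0 and 11 above it. Each library was also set against the ZMAT3-WT mean gene by gene. The median deviation of the set was -0.06, -0.09 and -0.09 log2 units in ZMAT3-KO replicates 1, 2 and 3, and 0.01, -0.01 and -0.00 in the ZMAT3-WT libraries. The 3 ZMAT3-KO libraries thus all lay below the 3 ZMAT3-WT libraries, by no more than about 0.1 log2 units. Without ZMAT3-WT replicate 2 the median of the set was -0.07.

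**Figure D1:**
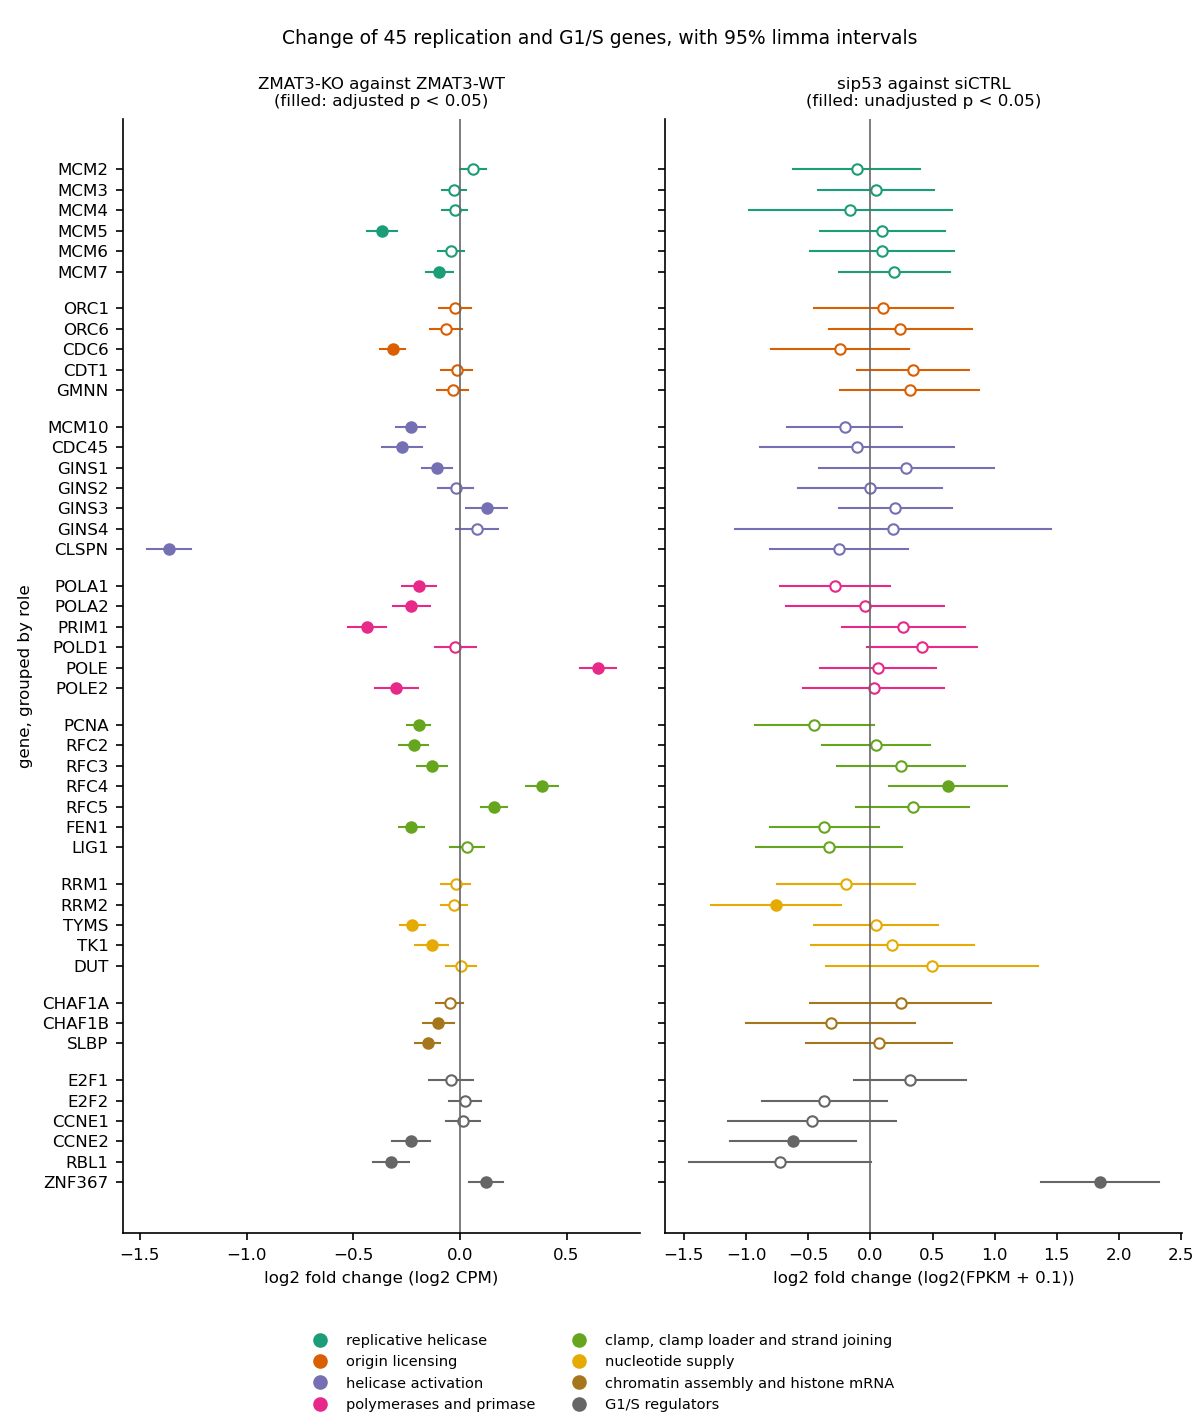
Log2 fold change of each of the 45 genes, in 8 role groups, for ZMAT3-KO against ZMAT3-WT (left, on log2 CPM) and sip53 against siCTRL (right, on log2(FPKM + 0.1)), on separate axes. Points are limma estimates, bars their 95% intervals, and filled points pass the rule named above each panel. CLSPN at -1.36 and POLE at 0.65 stand apart on the left and ZNF367 at 1.85 on the right, where most bars are wider.

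After p53 knockdown, few of the genes passed the test in the fit without a replicate block, on which the values below rest. At an unadjusted limma p under 0.05, ZNF367 and RFC4 were higher and RRM2 and CCNE2 were lower, where 5.86% of all 14274 genes tested were higher and 9.28% lower. That is 4.44% of the 45 genes in each direction. At an adjusted p under 0.05, ZNF367 alone was higher, where 0.035% of all genes were, and by limma no member was lower, where 0.238% of all genes were (2 were lower at the unadjusted p). The values of the 2 groups did not overlap in 10 genes that were higher and 9 that were lower with sip53, where 20.1% and 26.3% of all genes showed such a gap in each direction. The median log2 fold change of the set was 0.05, against -0.04 over all genes.

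The siRNA experiment measured these genes less precisely. Over the 41 genes that did not pass, the 95% interval reached a median of 0.56 log2 units to either side, which is 1.47-fold, and from 0.44 to 1.27 over single genes. The intervals of 36 of the 45 genes left out a 2-fold change, and those of 4 left out a 1.5-fold change. In this fit without a replicate block, changes of the size seen in most ZMAT3-KO genes were therefore not detectable with 2 libraries a group. The gaps between replicates that many genes shared, described below, stayed in the error of this fit. Crossed pairing, an alternative chosen after seeing the data, gave more calls in the set and over all genes, as given at the end. An exact permutation test of single values could not go below 0.1 with 3 libraries against 3, or below 0.333 with 2 against 2, so limma was used throughout.

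The MCM2-7 helicase, the ring of 6 subunits that unwinds DNA at the fork, was lower in ZMAT3-KO cells in 2 of its subunits. MCM5 measured 8.34, 8.22 and 8.24 log2 CPM in ZMAT3-WT and 7.90 in each of the 3 ZMAT3-KO libraries, with no overlap. Its log2 fold change was -0.37 ± 0.03 (SE; limma adjusted p = 9.1e-07), a decrease of 22.4%. MCM7 measured 9.37, 9.27 and 9.29 in ZMAT3-WT and 9.22, 9.22 and 9.21 in ZMAT3-KO, which were all below the ZMAT3-WT values (log2 fold change -0.10 ± 0.03, limma adjusted p = 0.0126). The MCM7 call was lost with no trend in the variance prior (adjusted p = 0.0607). MCM5 thus stood apart from the rest of its own complex.

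The remaining 4 helicase subunits did not pass the test. MCM2 measured 8.54, 8.50 and 8.47 log2 CPM in ZMAT3-WT and 8.58, 8.58 and 8.54 in ZMAT3-KO. Its log2 fold change of 0.06 ± 0.03 missed the threshold (limma adjusted p = 0.0737) but passed it without ZMAT3-WT replicate 1 (0.08, adjusted p = 0.0141) and with the replicate number as a block (adjusted p = 0.0424). MCM3 measured 8.62, 8.59 and 8.59 in ZMAT3-WT and 8.58, 8.59 and 8.54 in ZMAT3-KO (log2 fold change -0.03 ± 0.03). The groups overlapped in both of these genes.

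MCM4 measured 8.82, 8.83 and 8.84 log2 CPM in ZMAT3-WT and 8.80, 8.85 and 8.78 in ZMAT3-KO (log2 fold change -0.02 ± 0.03). MCM6, which held the most E2F words in its promoter window, measured 8.29, 8.26 and 8.27 in ZMAT3-WT and 8.25, 8.25 and 8.19 in ZMAT3-KO (-0.04 ± 0.03). The ZMAT3-KO values of MCM6 all lay just below those of ZMAT3-WT, and those of MCM4 overlapped them.

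With sip53, none of the 6 helicase subunits passed the test, and their log2 fold changes ran from -0.16 (MCM4) to 0.19 (MCM7). MCM7 measured 144 and 153 FPKM with siCTRL and 167 and 172 with sip53, the single subunit whose groups did not overlap (95% interval of the log2 fold change -0.26 to 0.64). MCM2 measured 45.3 and 54.1 FPKM with siCTRL and 50.1 and 41.9 with sip53. MCM3 measured 101.6 and 95.9 against 94.4 and 110.0. In both genes 1 sip53 library was above and the other below the siCTRL mean.

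MCM4 measured 110.0 and 69.5 FPKM with siCTRL and 63.1 and 96.9 with sip53. MCM5 measured 57.2 and 51.7 against 52.0 and 64.8. MCM6 measured 34.2 and 43.3 against 46.9 and 35.9. The replicates of 1 group thus differed by as much as the groups did, and the sign of the fold change of MCM2 to MCM6 turned when 1 library was left out. MCM2 then came to 0.02 without siCTRL replicate 2 or sip53 replicate 2, MCM3 to -0.06 and MCM5 to -0.06 without sip53 replicate 2, MCM4 to 0.17 and 0.15 and MCM6 to -0.08 and -0.10 without replicate 1 of siCTRL or of sip53.

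**Figure D2:**
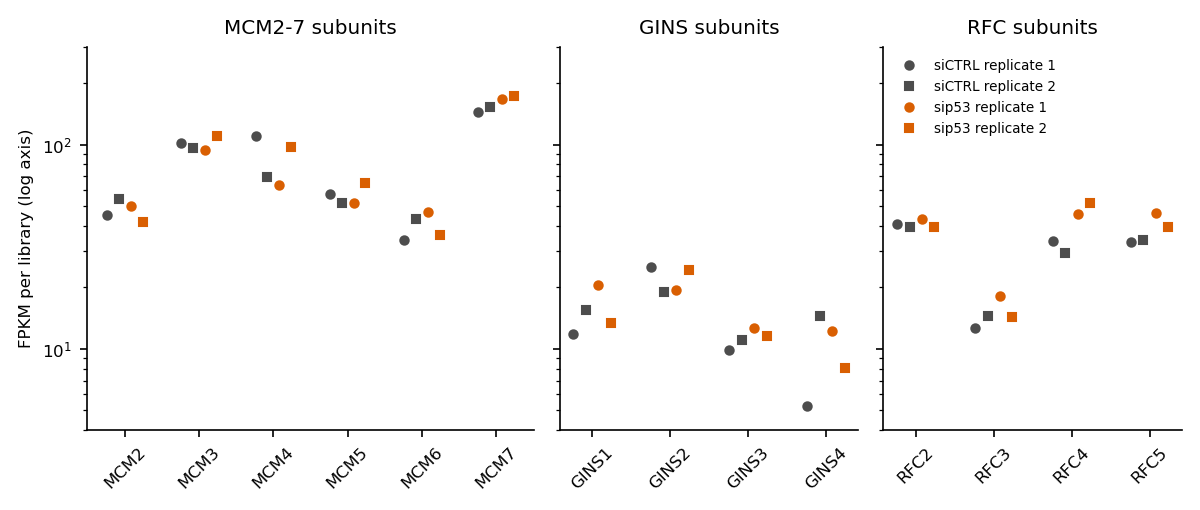
Level of each subunit of the MCM2-7 helicase, the GINS complex and the RFC clamp loader in the 4 siRNA libraries, in FPKM on a log axis, with circles for replicate 1 and squares for replicate 2. MCM7 is the highest helicase subunit in all 4 libraries (144 to 172 FPKM), RFC4 is higher in both sip53 libraries, and GINS4 spans 5.27 to 14.5 FPKM between the siCTRL replicates.

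FPKM, a unit read here from the values themselves, is scaled to transcript length, so levels can be set beside each other within a complex. With siCTRL the RNA of the helicase subunits ranged from 38.7 FPKM for MCM6 to 148 for MCM7, a ratio of 3.83. The protein ring holds 1 copy of each, but these libraries measured RNA and not protein. The members of the whole set ran from 3.41 FPKM for ZNF367 to 267 for PCNA, with a median of 25.4, where the median of all genes tested was 11.0. RRM2, the small subunit of the enzyme that makes deoxyribonucleotides, was next after PCNA at 219 FPKM.

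Of the 5 origin licensing genes, only CDC6, the ATPase that loads the helicase with CDT1, was lower in ZMAT3-KO cells. It measured 7.64, 7.66 and 7.61 log2 CPM in ZMAT3-WT and 7.31, 7.33 and 7.32 in ZMAT3-KO. The 2 groups lay about 0.3 log2 units apart with a spread of under 0.06 within each (log2 fold change -0.32 ± 0.03, limma adjusted p = 8.31e-07, 19.7% lower). ORC1 and ORC6 of the origin recognition complex, CDT1 and its inhibitor geminin (GMNN) did not pass, with log2 fold changes between -0.06 and -0.02.

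With sip53 no licensing gene passed. CDC6 measured 58.3 and 45.01 FPKM with siCTRL and 39.0 and 47.8 with sip53, with overlap (log2 fold change -0.25 ± 0.22). CDT1, at 27.1 and 30.4 against 34.7 and 38.1 FPKM, and GMNN, at 53.6 and 39.8 against 53.7 and 61.5, did not overlap between the groups. Their log2 fold changes of 0.34 and 0.32 had 95% intervals of -0.11 to 0.79 and -0.24 to 0.87.

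The largest decrease of the set was that of CLSPN among the 7 helicase activation genes. CLSPN encodes claspin, a fork protein that carries the signal from the checkpoint kinase ATR to CHK1 and helps forks keep their speed. It measured 6.56, 6.58 and 6.60 log2 CPM in ZMAT3-WT and 5.12, 5.34 and 5.19 in ZMAT3-KO, so that the highest ZMAT3-KO library lay more than 1 log2 unit under the lowest ZMAT3-WT library. The log2 fold change was -1.36 ± 0.05 (95% interval -1.47 to -1.26, limma adjusted p = 1.48e-10), a decrease of 61.2%. With sip53, CLSPN measured 14.0 and 12.1 FPKM in siCTRL and 9.44 and 12.5 in sip53, with overlap (log2 fold change -0.25 ± 0.22, limma adjusted p = 0.649). The interval of that change, from -0.80 to 0.30, left out a decrease as large as in the ZMAT3-KO clone, but the 2 experiments were not tested against each other.

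The helicase cofactors CDC45 and MCM10 and the GINS subunit GINS1 were also lower in ZMAT3-KO, by 17.2%, 14.7% and 7.15%. The GINS subunit GINS3 went the other way. It measured 5.11, 5.26 and 5.24 log2 CPM in ZMAT3-WT and 5.35, 5.32 and 5.32 in ZMAT3-KO, with no overlap and with ZMAT3-WT replicate 1 as the lowest (log2 fold change 0.13 ± 0.04, limma adjusted p = 0.0261). That call was lost without ZMAT3-WT replicate 1 (0.08, adjusted p = 0.08), without ZMAT3-KO replicate 1 (0.12, adjusted p = 0.086), without ZMAT3-KO replicate 3 (0.13, adjusted p = 0.0512), and with no trend in the variance prior (adjusted p = 0.0652). GINS2 and GINS4 did not pass, with log2 fold changes of -0.02 and 0.08. With sip53 none of the 7 genes passed, and GINS3 measured 9.86 and 11.1 FPKM with siCTRL and 12.6 and 11.5 with sip53 (log2 fold change 0.20 ± 0.18).

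Subunits of the same enzyme moved in opposite directions in the polymerase group. POLE, the catalytic subunit of the leading-strand polymerase epsilon, measured 5.84, 5.79 and 5.80 log2 CPM in ZMAT3-WT and 6.44, 6.54 and 6.40 in ZMAT3-KO. All ZMAT3-KO libraries were more than 0.5 log2 units above all ZMAT3-WT libraries (log2 fold change 0.65 ± 0.04, limma adjusted p = 2.7e-08, a 56.8% increase). Its partner POLE2 was 18.7% lower. PRIM1, the catalytic subunit of primase, measured 5.66, 5.73 and 5.67 in ZMAT3-WT and 5.24, 5.32 and 5.20 in ZMAT3-KO, the second largest decrease of the set (-0.43 ± 0.04, limma adjusted p = 1.73e-06, 26.0% lower). The polymerase alpha subunits POLA1 and POLA2, which work with primase, were 12.5% and 14.6% lower, and POLD1, the catalytic subunit of polymerase delta, did not pass (-0.02 ± 0.04).

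With sip53 no polymerase or primase gene passed. POLE measured 15.7 and 17.2 FPKM with siCTRL and 15.9 and 18.5 with sip53, with overlap (log2 fold change 0.06 ± 0.18). The interval, from -0.40 to 0.53, left out the 0.65 seen in the ZMAT3-KO clone, and the sign of the estimate turned without siCTRL replicate 1 (-0.00) or sip53 replicate 2 (-0.05). PRIM1 measured 25.4 and 26.7 with siCTRL and 35.1 and 27.9 with sip53, a log2 fold change of 0.26 ± 0.20 in the direction opposite to that in the ZMAT3-KO clone.

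The clamp loader was split in the same way. RFC4 measured 5.96, 5.99 and 6.0 log2 CPM in ZMAT3-WT and 6.31, 6.40 and 6.40 in ZMAT3-KO (log2 fold change 0.38 ± 0.03, limma adjusted p = 1.05e-06, 30.6% higher). RFC5 measured 7.11, 7.04 and 7.07 against 7.24, 7.23 and 7.23 (0.16 ± 0.03, limma adjusted p = 0.000345). Both had no overlap between the groups. RFC2 and RFC3, small subunits of the same loader, were 14.0% and 8.69% lower.

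RFC4 was also higher with sip53. It measured 33.9 and 29.4 FPKM with siCTRL and 45.7 and 51.9 with sip53, 1.54-fold higher with no overlap (log2 fold change 0.62 ± 0.19, limma adjusted p = 0.229). It passed only at the unadjusted p. That call was lost without siCTRL replicate 1 (log2 fold change 0.73), without siCTRL replicate 2 (0.52) and without sip53 replicate 2 (0.53). It was also lost with the replicate number as a block, which cannot decide here because same-numbered siRNA libraries deviated in opposite directions. RFC5 measured 33.5 and 34.1 against 46.3 and 39.6 FPKM, with no overlap, and did not pass (0.34 ± 0.18, limma adjusted p = 0.442).

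PCNA, the ring that holds polymerases on DNA, was lower in ZMAT3-KO cells. It measured 8.85, 8.82 and 8.83 log2 CPM in ZMAT3-WT and 8.65, 8.63 and 8.64 in ZMAT3-KO (log2 fold change -0.19 ± 0.02, limma adjusted p = 2.36e-05, 12.6% lower). FEN1, the nuclease that trims the flaps of lagging-strand fragments, was 14.6% lower, and LIG1, the ligase that seals them, did not pass (0.03 ± 0.04). With sip53, PCNA measured 255 and 279 FPKM in siCTRL and 207 and 184 in sip53. The groups did not overlap, but the log2 fold change of -0.45 ± 0.19 missed the unadjusted threshold (95% interval -0.93 to 0.03) and passed it when no filter on low values was set.

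Among the 5 nucleotide supply genes, thymidylate synthase (TYMS) and thymidine kinase (TK1) were 14.3% and 8.77% lower in ZMAT3-KO cells. The ribonucleotide reductase subunits RRM1 and RRM2 and the dUTPase gene DUT did not pass. RRM2 measured 9.22, 9.30 and 9.29 log2 CPM in ZMAT3-WT and 9.24, 9.26 and 9.23 in ZMAT3-KO, with overlap (log2 fold change -0.03 ± 0.03). With sip53 the order changed, and RRM2 showed the largest decrease of the set. It measured 218 and 219 FPKM with siCTRL and 146 and 114 with sip53, a log2 fold change of -0.76 ± 0.21 (limma adjusted p = 0.206).

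The siCTRL libraries of RRM2 were nearly equal and the sip53 libraries differed from each other by more than 30 FPKM. The call at the unadjusted p was lost without siCTRL replicate 1 or 2 (-0.76 each) and without sip53 replicate 2 (-0.58). It was also lost with the replicate number as a block, which cannot decide here for the reason given for RFC4. RRM2 and PCNA have 3 annotated pseudogenes each, TYMS has 2, DUT has 8, and ORC1, RFC3, RFC5 and FEN1 have 1 each. Reads shared with such copies may therefore have been counted differently for these genes. DUT had the largest log2 fold change above 0 among the genes that did not pass (0.50 ± 0.34), and its sip53 libraries differed widely, at 51.4 and 31.9 FPKM.

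The chromatin assembly genes moved little. CHAF1B, a subunit of the factor that deposits new histones behind the fork, and SLBP, which binds histone mRNA, were 6.74% and 9.95% lower in ZMAT3-KO cells. CHAF1A did not pass (log2 fold change -0.05 ± 0.03). None of the 3 passed with sip53.

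The regulators of the G1/S step divided into factors that hardly moved in the ZMAT3-KO clone and 3 that passed. E2F1, the best-known activator of the set, measured 5.52, 5.37 and 5.39 log2 CPM in ZMAT3-WT and 5.42, 5.31 and 5.43 in ZMAT3-KO (log2 fold change -0.04 ± 0.05). E2F2 measured 5.38, 5.43 and 5.42 against 5.42, 5.46 and 5.42 (0.02 ± 0.03). CCNE1, the cyclin that activates CDK2 in late G1, measured 5.99, 5.97 and 5.99 against 6.03, 5.92 and 6.04 (0.01 ± 0.04). All 3 overlapped between the groups, and the estimates of E2F1 and CCNE1 were near enough to 0 to turn sign when 1 library was left out (E2F1 to 0.00 without ZMAT3-WT replicate 1, CCNE1 to -0.00 and -0.01 without ZMAT3-KO replicate 1 or 3).

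CCNE2, the second cyclin E gene, measured 5.41, 5.52 and 5.42 log2 CPM in ZMAT3-WT and 5.24, 5.25 and 5.17 in ZMAT3-KO (log2 fold change -0.23 ± 0.04, limma adjusted p = 0.0004, 14.7% lower). RBL1, which encodes the RB family protein p107, measured 5.01, 5.05 and 5.07 against 4.74, 4.74 and 4.68 (-0.32 ± 0.04, limma adjusted p = 1.55e-05, 20.2% lower). Neither gene overlapped between the groups. ZNF367, a zinc-finger factor, measured 5.47, 5.55 and 5.56 against 5.63, 5.68 and 5.63, also without overlap (0.12 ± 0.04, limma adjusted p = 0.013).

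ZNF367 showed the largest change of the set after p53 knockdown. It measured 3.64 and 3.18 FPKM with siCTRL and 12.5 in both sip53 libraries, 3.59-fold higher. The log2 fold change was 1.85 ± 0.19 (95% interval 1.37 to 2.32, limma adjusted p = 0.0466), and it lay between 1.61 and 1.94 under every alternative run. The unadjusted p stayed under 0.05 in each of them. The adjusted p rose above 0.05 when any 1 of the 4 libraries was left out (adjusted p = 0.166 and 0.193 without siCTRL replicate 1 and 2, 0.0969 and 0.113 without sip53 replicate 1 and 2). It was 0.187 with no filter on low values, 0.0743 with no variance trend and 0.051 after centring on the median gene of each library.

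CCNE2 was lower with sip53, at 12.7 and 13.4 FPKM with siCTRL and 9.49 and 7.47 with sip53 (log2 fold change -0.62 ± 0.20, limma adjusted p = 0.252). It passed at the unadjusted p, and that call was lost without siCTRL replicate 1 (-0.66), without siCTRL replicate 2 (-0.58) and without sip53 replicate 2 (-0.45). It was also lost with the replicate number as a block, which cannot decide here for the reason given for RFC4. In the annotation, 37.0% of the exon bases of CCNE2 overlap INTS8 on the opposite strand. INTS8, at a mean of 52.6 FPKM with siCTRL and 47.9 with sip53, did not pass (log2 fold change -0.13, limma adjusted p = 0.859), while in ZMAT3-KO cells it was lower as CCNE2 was (-0.24, limma adjusted p = 3.03e-05). The library kit of the ZMAT3 experiment marks strand, and that of the siRNA experiment is not stated to. The part of INTS8 reads in the CCNE2 values was not tested. Other members overlap genes as well, among them TYMS with ENOSF1 on the opposite strand (39.9% of exon bases). POLA2 (16.8%) and PRIM1 (10.9%) overlap genes annotated as protein-coding on the same strand, which marking strand does not separate. The part of such reads was not tested either.

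The other regulators did not pass with sip53. RBL1 measured 5.13 and 3.26 FPKM with siCTRL and 2.60 and 2.27 with sip53, with no overlap (log2 fold change -0.73 ± 0.29, 95% interval -1.46 to 0.00), and passed at the unadjusted p without siCTRL replicate 2 (-1.05). CCNE1 measured 47.5 and 35.4 against 24.5 and 35.7, with overlap (-0.47 ± 0.27), and passed without sip53 replicate 2 (-0.74). E2F1 was 13.1 and 15.0 against 17.7 and 17.3 FPKM (0.32 ± 0.18) and E2F2 was 6.07 and 6.93 against 5.33 and 4.68 (-0.37 ± 0.20), so that these related activators had estimates of opposite sign, each without overlap.

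**Figure D3:**
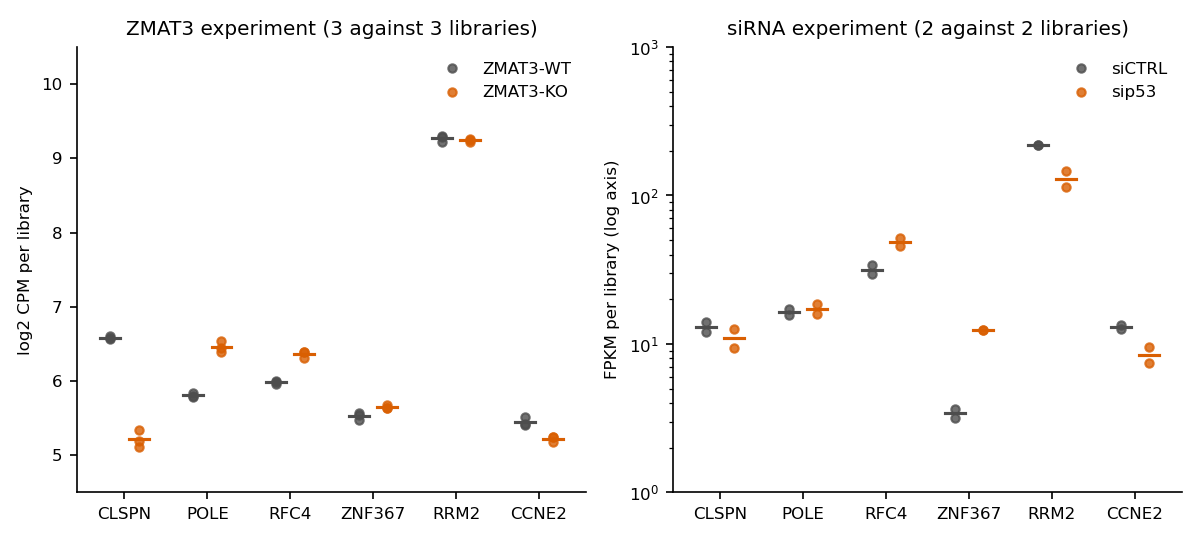
Values of 6 genes in every library, as log2 CPM in the ZMAT3 experiment (left) and as FPKM on a log axis in the siRNA experiment (right), with points for libraries and lines for group means. CLSPN falls and POLE rises in all 3 ZMAT3-KO libraries, RFC4 and ZNF367 are higher and RRM2 and CCNE2 lower in both sip53 libraries. Levels are comparable between genes on the right only, where the unit was read as FPKM.

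A further 58 genes of the same pathway that are not in the set, 35 replication genes and 23 G1/S regulators, were counted in the same fits. In ZMAT3-KO cells 27 were lower (46.6%) and 10 higher (17.2%) at an adjusted p under 0.05, where 30.1% and 28.7% of all genes were, and none of the 58 differed by 1.5-fold in either direction. Among the increases were those of TFDP2, a dimer partner of E2F factors (log2 fold change 0.48 ± 0.03), and ASF1A, a histone chaperone (0.44 ± 0.04). The largest decreases were those of CDKN1A (-0.53 ± 0.03), RECQL4, a helicase that acts at replication origins (-0.45 ± 0.03), and RRM2B, the ribonucleotide reductase subunit induced by p53 (-0.34 ± 0.04). Both gene groups thus had more genes lower than higher in the ZMAT3-KO clone, as the set itself had, and with changes as small.

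With sip53, 7 of the 58 genes were higher (12.1%) and 6 lower (10.3%) at an unadjusted p under 0.05, where 5.86% and 9.28% of all genes were, and CDKN1A alone passed at an adjusted p. CDKN1A measured 525 and 481 FPKM with siCTRL and 34.2 and 37.7 with sip53, 14.0-fold lower (log2 fold change -3.80 ± 0.18, limma adjusted p = 0.00869). RRM2B measured 39.5 and 53.1 against 19.8 and 12.02 (-1.56 ± 0.30, limma adjusted p = 0.133). The inhibitor of CDK2 and the p53-induced reductase subunit thus fell far more than any of the 45 genes, and the RRM2 and RRM2B estimates were both below 0.

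Cyclin A2 (CCNA2), the S-phase cyclin, was higher at the unadjusted p, at 36.4 and 33.5 FPKM with siCTRL and 64.9 and 60.8 with sip53 (log2 fold change 0.85 ± 0.17, limma adjusted p = 0.148). DBF4, the activating subunit of the kinase that fires origins, measured 25.2 and 20.3 against 40.8 and 39.7 (0.83 ± 0.19, limma adjusted p = 0.172), and CHTF18, of an alternative clamp loader, 8.25 and 9.60 against 13.0 and 15.2 (0.66 ± 0.19, limma adjusted p = 0.226). RB1, the retinoblastoma gene, was lower, at 17.8 and 19.5 against 12.6 and 7.13 (-0.97 ± 0.30, limma adjusted p = 0.243). None of these 4 genes overlapped between the groups. At the unadjusted p, CHTF18 lost its call without siCTRL replicate 1 (0.55) or sip53 replicate 2 (0.54), DBF4 without siCTRL replicate 2 (0.67), and RB1 without siCTRL replicate 2 (-0.90) or sip53 replicate 2 (-0.56). E2F7, a repressor of E2F targets that p53 induces, passed in neither experiment (log2 fold change -0.07 ± 0.06 in ZMAT3-KO and -0.27 ± 0.25 with sip53).

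Side by side, the experiments are compared in the fits without a replicate block. Crossed pairing gave more sip53 calls, as given at the end. Without a block the experiments could share few calls in the set, because only ZNF367, RFC4, RRM2 and CCNE2 passed with sip53. Of these, ZNF367 and RFC4 were higher and CCNE2 was lower in both, each by its own experiment's rule. RRM2 did not pass in ZMAT3-KO. The share of all genes called in both was not counted, so whether the shared calls exceed it is not known. In ZMAT3-KO alone, 28.7% of all 13029 genes were higher and 30.1% lower. Of the 45 genes, 7 had a fold change above 0 in both experiments and 15 below 0 in both, so 48.9% had the same sign, where 47.9% of the 11370 genes tested in both did. Another 19 genes were below 0 in ZMAT3-KO and above 0 with sip53, and 4 were the reverse. Across the 45 genes Pearson's r was 0.30 and Spearman's rho 0.34, and over the 11370 genes they were -0.03 and -0.05, which describes genes that share their libraries and are not independent replicates.

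**Figure D4:**
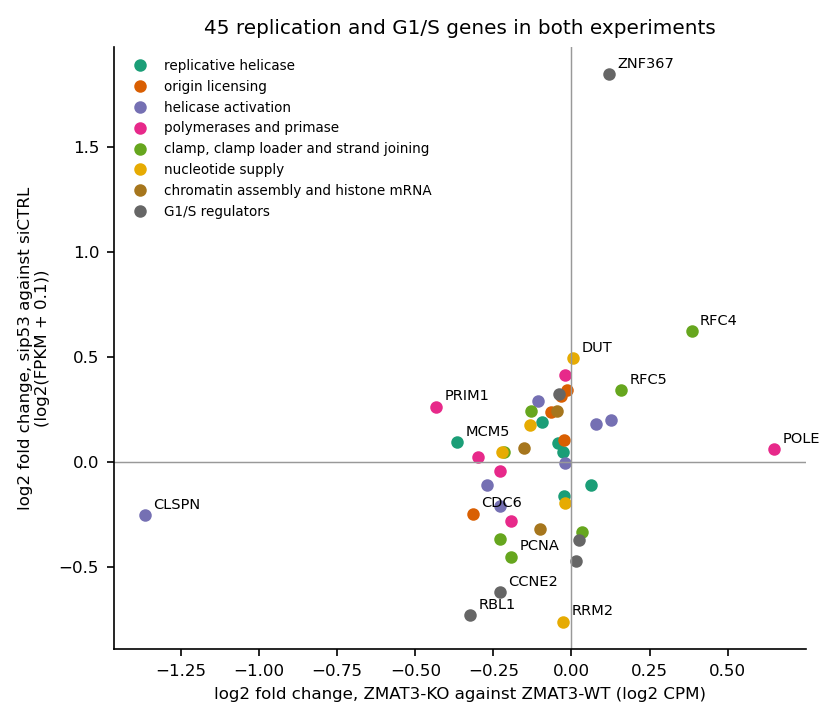
Log2 fold change of the 45 genes in ZMAT3-KO against ZMAT3-WT (horizontal, log2 CPM) and in sip53 against siCTRL (vertical, log2(FPKM + 0.1)), coloured by role, with grey lines at 0. Most points lie near the centre. CLSPN and POLE lie far out along the horizontal axis only, and ZNF367 along the vertical axis.

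The replicates of the siRNA experiment differed from each other in a way that many of the 45 genes, and most genes of the table, shared. The median gap between replicates was 0.20 log2 units for siCTRL and 0.29 for sip53. The largest were 1.44 for GINS4 between the siCTRL replicates, at 5.27 and 14.5 FPKM, and 0.82 for CDC45 between the sip53 replicates, at 9.77 and 17.4 FPKM. In 36 of the 45 genes the gap between replicates 1 and 2 had opposite signs in the 2 groups (80%), as it had in 74.4% of all 14274 genes tested. The median deviation of the set from the siCTRL mean was -0.04 and 0.04 log2 units in siCTRL replicates 1 and 2 and -0.05 and 0.01 in sip53 replicates 1 and 2, so the set as a whole lay no further from siCTRL in the sip53 libraries than the siCTRL libraries lay from each other.

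**Figure D5:**
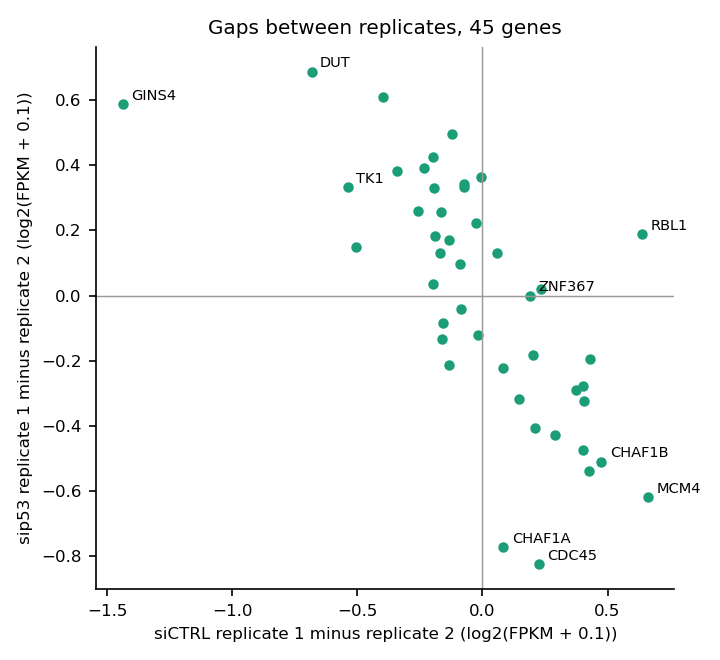
Difference between replicate 1 and replicate 2 for each of the 45 genes, in siCTRL (horizontal) and sip53 (vertical), on the log2(FPKM + 0.1) scale. 36 points lie in the upper left and lower right, where the gaps have opposite signs, and ZNF367 lies near 0 on the vertical axis.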

How the data were processed

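HCT116 RNA-seq tables of the ZMAT3 experiment (3 against 3 libraries) and the siRNA experiment (2 against 2) were analysed separately. The authors deposited log2 CPM values for the ZMAT3 experiment, made after Cutadapt trimming, STAR alignment to hg38 and RSEM quantification. The 6 libraries shared nearly 1 distribution, since sorted values differed by under 0.01 log2 units at 95.4% of ranks, so that centring on medians changes little, and how CPM was derived is not given in the sources used here. The FPKM unit of the deposited siRNA table was read from its values. The submitters' processing notes name CASAVA 1.8.2, TopHat2 2.0.8, FastQC 0.11.2, hg19 and hg38 without a role, and how this table was made is not given in the sources used here. Columns of the authors' own fold changes and p-values were not used.

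limma 3.58.1 in R 4.3.3 was fitted two-sided (lmFit, eBayes with a variance trend) to log2 CPM, and to log2(FPKM + 0.1) after genes under a mean of 0.5 FPKM were dropped. Fold changes on the latter scale understate the change of low genes. P-values were adjusted by Benjamini-Hochberg over all genes of a table. In data simulated on each table, with 200 genes changed by 1 log2 unit, 97.0% of those 200 were called at an adjusted p under 0.05 in the ZMAT3 design (13029 genes). In the siRNA design (14274 genes) 80.5% were called at an unadjusted p under 0.05, with 5.61% of unchanged genes, and 0 at an adjusted p. Noise was drawn separately for each gene and library, so the replicate gaps that many siRNA genes shared were not part of the simulation.

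Values in every library are given for members past the 1.5-fold rule, the 5 largest calls in each direction in ZMAT3-KO, the sip53 calls, and E2F1, E2F2, CCNE1, CCNE2, PCNA and MCM2 to MCM7. Of the further pathway genes, the 3 largest calls in each direction per experiment, CDKN1A, RRM2B and E2F7 are named. Some results under these rules are not reported here. The members and lists were chosen with earlier results of these data known. CDT1, GMNN, DUT, GINS4 and CDC45 values per library were added after they were seen. Promoter windows are from RefSeq, and gene overlaps and pseudogenes from GENCODE release 44. Alternatives were other pseudocounts, filters, scaling, variance prior, replicate blocks and each library left out.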

Additional observations from a re-analysis of the deposited data

How the results depend on the processing

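In the ZMAT3 experiment the counts of genes kept within 1.5 times of their main value under every alternative (4 to 6 higher, 19 to 21 lower, and 1 each way with the 1.5-fold rule). The median of the set lay between -0.069 (without ZMAT3-WT replicate 2) and -0.053 when single libraries were left out. The siRNA counts were less stable. At an unadjusted p, the number higher was 1 to 3 and the number lower 0 to 2 with 1 library left out, and 4 were lower with no filter. ZNF367 was not called at an adjusted p (0 higher) with no filter, no variance trend, centred libraries or any library left out. The median of the set was 0.12 with centred libraries and -0.046 to 0.074 with 1 library left out. The shorter motif of 7 letters, without the first T, stood in windows of 34 of the 41 genes, against 15.3% of all genes.

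Fits for single genes were run for the 21 members with values in every library, and among these signs turned only for genes that did not pass, each with 1 library left out. Over these fits CCNE1 lay between -0.0084 and 0.050 (also -0.0023) and E2F1 between -0.069 and 0.0050 in ZMAT3-KO. With sip53 MCM2 lay between -0.24 and 0.018 (also 0.017), MCM3 between -0.064 and 0.16, MCM4 between -0.49 and 0.17 (also 0.15), MCM5 between -0.064 and 0.25, MCM6 between -0.10 and 0.28 (also -0.079) and POLE between -0.046 and 0.17 (also -0.0048). The cause was not tested.

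Same-numbered libraries did not pair. The correlation of their deviations from the group means was -0.04, -0.02 and -0.09 in the ZMAT3 experiment and -0.62 in the siRNA experiment. A replicate block left 6 higher and 21 lower in ZMAT3-KO, and 1 higher and 0 lower at an unadjusted p with sip53. Crossed pairing, an alternative chosen after seeing the data, gave 8 higher and 10 lower at an unadjusted p (16.9% and 21.9% of all genes), and 5 higher and 6 lower at an adjusted p (10.9% and 14.6% of all genes). Sequencing depth, and so the counting error of low genes, is unknown.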
